A study of Rattus norvegicus with 12 samples.

Results

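Signalling through gp130 and STAT3, together with a group of inflammatory chemokines, was followed in cultured rat cerebellar granule neurons on 12 expression arrays. The group holds 10 genes chosen by symbol: the receptor genes Il6st, Osmr and Lifr, the transcription factor gene Stat3, the feedback inhibitor genes Socs3 and Socs2, the chemokine genes Cxcl1, Ccl2 and Ccl20, and the NF-kB inhibitor gene Nfkbia. A probe set, the unit that the array reports for a transcript, was taken as a gene's own where the gene was its only symbol. Of the 10 genes, 9 had such a probe set and Osmr had none, so Osmr was not analysed here. They held 14 of the 31042 probe sets that are not controls. A filter on low intensity kept 12 of the 14, for 8 genes, among 18625 probe sets and 10260 genes in all. Both Lifr probe sets fell below the filter.

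The arrays form 4 groups of 3, whose titles carry the letters A, B and C: cultures given GW5074 at 6 h, cultures in low potassium at 6 h, GW5074 at 3 h and low potassium at 3 h. GW5074 is a small-molecule kinase inhibitor known for its action on RAF kinases, and a fall in potassium is a common way to set off the death of granule neurons in culture. The labels give rat cerebellum as the source but no age, strain or dose. Whether GW5074 was given in low or in normal potassium is not stated. No group is labelled as untreated, so a change between 3 h and 6 h cannot be told apart from further time in culture. The labels also do not say whether both times share a preparation of cells, so a difference between preparations cannot be told apart either. The labels do not say whether the letters are separate cultures, and the p-values below measure only the spread between these arrays, which may be technical.

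Cytokines of the interleukin-6 family bind a receptor made of the shared chain gp130, the product of Il6st, and a partner such as the LIF receptor or the oncostatin M receptor. Kinases of the JAK family on the receptor then phosphorylate STAT3, which enters the nucleus and switches on target genes, among them Socs3, whose product shuts the receptor down. NF-kB, held in the cytoplasm by the inhibitor that Nfkbia encodes, is the main driver of Cxcl1, Ccl2 and Ccl20, and in brain these chemokines are made largely by glia and vessel cells and call in blood leukocytes.

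Every value is a deposited intensity on a linear scale, each array having been scaled to the same trimmed mean, and log2 changes are of the quantile-normalised intensity with 16 added. Intensities of different probe sets were not set against each other. Time was the main axis of difference among the arrays: on a scale where the mean 3 h array lies at 0 and the mean 6 h array at 1 along the first principal component, letters A and C reached 1.10 to 1.23 at 6 h, letter B 0.628 (GW5074) and 0.691 (low potassium) at 6 h, and the 3 h arrays -0.0844 to 0.115. The title of the GW5074 6 h array A ends in another suffix than the other titles, with no meaning given. Of 12 granule neuron markers listed, such as Gabra6 and Neurod1, 11 had a probe set and all 11 passed the filter; they summed to 11697 to 14308 in GW5074 at 6 h, 11835 to 13047 in low potassium at 6 h, 6057 to 7371 in GW5074 at 3 h and 6241 to 8072 in low potassium at 3 h.

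The comparison of 6 h with 3 h sets the later arrays of each treatment against its earlier ones. In GW5074 cultures the chemokine genes Cxcl1, Ccl20 and Ccl2 fell, by 4.74-fold, 1.94-fold and 2.29-fold, and no member rose. In low-potassium cultures Cxcl1 and Ccl20 fell by 3.08-fold and 1.67-fold, Stat3 fell by 1.31-fold, and Socs3, close to the filter, also passed as lower. All 8 genes measured above the filter had a negative log2 change in both treatments at their brightest probe sets. Counted by probe set, the change was negative for 9 of 12 in GW5074 and for 11 of 12 in low potassium. By limma with adjustment over all 18625 probe sets at 0.05, 3 of the 12 probe sets of these genes passed as lower at 6 h in GW5074, where 11.9% of all probe sets did, and 4 of 12 in low potassium, where 11.0% did. In the normalised values the 3 arrays at 6 h all lay below the 3 arrays at 3 h for 6 of the 12 probe sets in GW5074 (18.9% of all probe sets) and for 5 of 12 in low potassium (19.4%). The median change of the 8 genes was -0.43 in GW5074 and -0.39 in low potassium, against -0.02 and -0.04 over all genes tested. The members were chosen with earlier results of these data known. The shares and medians set beside those of all genes are therefore a description and not a test of the group.

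**Figure D1:**
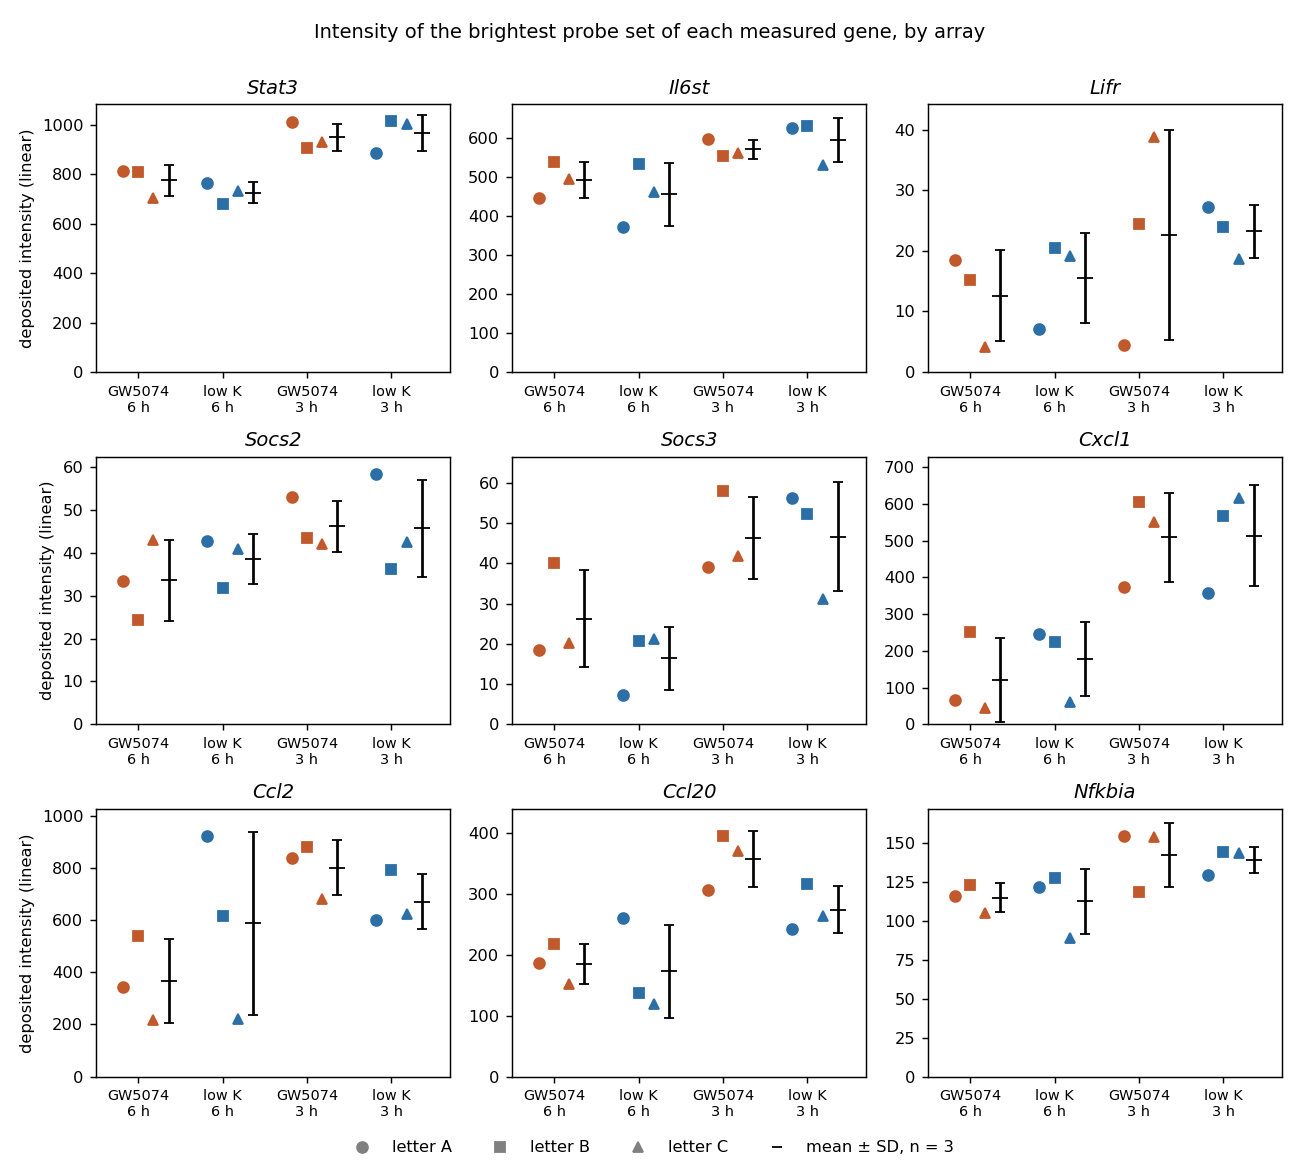
Deposited intensity (linear vertical axis from 0) of the brightest probe set of each measured gene on all 12 arrays, with a marker shape for each letter and the mean ± SD of each group (n = 3) beside the points. Cxcl1 lies between 43.3 and 252 on the 6 h arrays and between 358 and 617 on the 3 h arrays, while both Lifr and Socs2 overlap between all neighbouring groups.

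**Figure D2:**
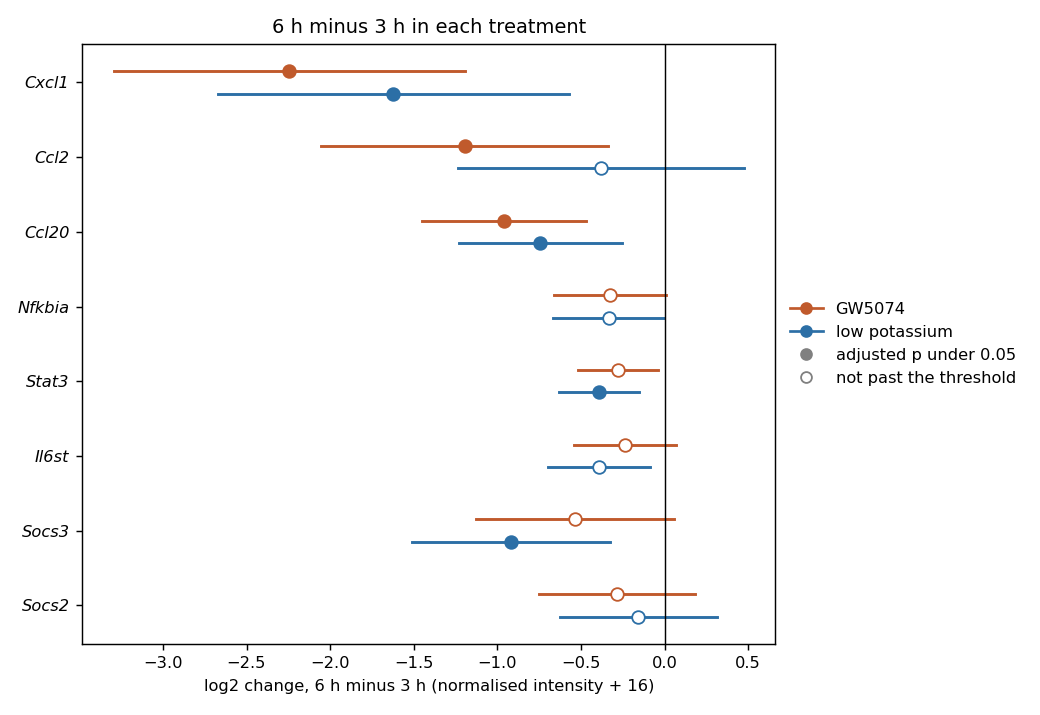
Log2 change of each gene, 6 h minus 3 h, in GW5074 (upper of each pair) and in low potassium, with bars for the 95% interval; filled points passed limma's adjusted threshold. All 16 points lie left of 0, from -2.25 for Cxcl1 in GW5074 to -0.16 for Socs2 in low potassium.

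Of the receptor genes, Il6st had 4 probe sets above the filter and no change over time past the threshold. Its brightest probe set (1371926_at) had 447, 538 and 495 in GW5074 at 6 h, 372, 533 and 462 in low potassium at 6 h, 599, 554 and 562 in GW5074 at 3 h and 627, 631 and 531 in low potassium at 3 h. The GW5074 arrays at 6 h all lay below those at 3 h, while in low potassium array B at 6 h lay within the range at 3 h. The log2 change was -0.24 ± 0.14 (SE, limma adjusted p = 0.244) in GW5074 and -0.39 ± 0.14 (adjusted p = 0.0619) in low potassium. Without the low-potassium 6 h array B the change was -0.52 (adjusted p = 0.0189). The other Il6st probe sets did not share a direction: in GW5074 the changes were 0.06, 0.15 and 0.11 (1370957_at, 1373140_at and 1383489_at), and in low potassium -0.37, -0.12 and 0.07, none past the threshold. Lifr, the partner chain for LIF, lay between 4.15 and 38.9 on all 12 arrays at its brighter probe set and between 1.01 and 21.8 at the other. With no filter its changes over time lay between -0.29 and 0.25, with adjusted p from 0.628 to 0.687.

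Stat3 is the factor that carries the gp130 signal to the nucleus. At its brightest probe set it was lower at 6 h on every array of both treatments. Its brightest probe set (1370224_at) had 814, 810.3 and 705 in GW5074 at 6 h, 765, 681 and 733 in low potassium at 6 h, 1011, 907 and 932 in GW5074 at 3 h and 885, 1015 and 1004 in low potassium at 3 h. The highest 6 h array thus lay below the lowest 3 h array. In low potassium it fell by 0.39 ± 0.11 on the log2 scale (SE, limma adjusted p = 0.0228), and in GW5074 the change was -0.28 ± 0.11 (adjusted p = 0.0817). The second probe set (1371781_at) had -0.53 in low potassium (adjusted p = 0.0507) and -0.33 in GW5074 (adjusted p = 0.199). In GW5074 its arrays overlapped between the times, with 207, 296 and 275 at 6 h and 333, 257 and 353 at 3 h. The call of the brightest probe set in low potassium was lost without the low-potassium 3 h array B (-0.35, adjusted p = 0.0932) or C (-0.36, 0.0654). It was also lost without the 6 h array B (-0.35, 0.0520) or C (-0.38, 0.0690).

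Socs3, a STAT3 target whose protein blocks JAK kinases at gp130, was dim. It had 18.5, 40.2 and 20.2 in GW5074 at 6 h, 7.40, 20.8 and 21.1 in low potassium at 6 h, 39.1, 58.0 and 42.0 in GW5074 at 3 h and 56.4, 52.4 and 31.1 in low potassium at 3 h. The low-potassium arrays at 6 h all lay below those at 3 h, and in GW5074 array B at 6 h reached the range at 3 h. Socs3 fell by 0.92 ± 0.28 in low potassium (SE, limma adjusted p = 0.0287), and in GW5074 the change was -0.54 ± 0.28 (adjusted p = 0.171). All 3 low-potassium arrays at 6 h lay below 28.0, the mean intensity over the 12 arrays that the filter asked for. The size of the fall depends on the number added before the log, being -1.50 with 1 added and -0.44 with 64 added, past the threshold in both. The call was lost without the low-potassium 3 h array A (-0.80, adjusted p = 0.0989) or B (-0.86, 0.101) or the 6 h array A (-0.67, 0.123), and the last of these is the array at 7.40. Socs2, a relative best known for damping growth hormone signalling, had 33.5, 24.2 and 43.0 in GW5074 at 6 h, 42.8, 31.9 and 40.8 in low potassium at 6 h, 52.9, 43.5 and 42.0 in GW5074 at 3 h and 58.3, 36.2 and 42.5 in low potassium at 3 h. Its groups overlapped, with changes of -0.28 in GW5074 (adjusted p = 0.371) and -0.16 in low potassium (adjusted p = 0.643).

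The promoters of Cxcl1, whose chemokine draws neutrophils, and Ccl20, whose chemokine draws cells with the receptor CCR6, are shown because these genes fell in both treatments, and that of Nfkbia because it is the textbook NF-kB target among the other members. They are the RefSeq sequences on GRCr8, 250 bases before to 50 after the gene start, at chr14:17479272-17479571 (minus strand) for Cxcl1, chr9:91836909-91837208 (plus strand) for Ccl20 and chr6:78597023-78597322 (minus strand) for Nfkbia, read 5′ to 3′ along the gene. Capitals mark matches to GGANTTTCC or GGGANTTCC, 9 letters that resemble the NF-kB site, searched on both strands. GGGANTTCC had no match in these windows, so no matches of the pair overlapped.
Cxcl1: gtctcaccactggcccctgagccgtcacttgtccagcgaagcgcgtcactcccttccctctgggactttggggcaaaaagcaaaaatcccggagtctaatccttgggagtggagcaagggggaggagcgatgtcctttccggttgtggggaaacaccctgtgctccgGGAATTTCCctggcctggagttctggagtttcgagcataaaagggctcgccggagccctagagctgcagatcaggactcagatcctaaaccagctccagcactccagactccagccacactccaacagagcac
Ccl20: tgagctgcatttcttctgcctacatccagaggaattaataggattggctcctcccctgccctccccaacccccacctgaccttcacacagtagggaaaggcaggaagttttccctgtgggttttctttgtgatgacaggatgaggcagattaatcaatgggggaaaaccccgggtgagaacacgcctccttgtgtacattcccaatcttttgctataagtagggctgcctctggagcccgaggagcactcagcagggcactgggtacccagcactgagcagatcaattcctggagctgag
Nfkbia: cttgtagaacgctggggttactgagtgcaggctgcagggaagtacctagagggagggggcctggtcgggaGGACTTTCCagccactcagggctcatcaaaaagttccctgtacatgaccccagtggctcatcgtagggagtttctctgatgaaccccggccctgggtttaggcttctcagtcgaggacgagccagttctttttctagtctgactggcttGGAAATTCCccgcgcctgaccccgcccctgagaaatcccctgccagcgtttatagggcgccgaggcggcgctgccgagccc
The Cxcl1 window held 1 match, GGAATTTCC, whose first base is at -83 from the start. The Nfkbia window held 2, GGACTTTCC at -180 and GGAAATTCC at -31. The second matches on the other strand, where it reads GGAATTTCC. The Ccl20 window held no match to either pattern. Other forms of the NF-kB site were not searched, so an NF-kB-like site in the Ccl20 window is not excluded. Among 33469 promoter windows of 300 bases, 1.28% held GGANTTTCC and 1.64% held GGGANTTCC. The STAT palindrome TTCNNNGAA, in 8.87% of all windows, was in none of the 8 member windows found. They are those of Stat3, Il6st, Osmr, Lifr, Socs3, Cxcl1, Ccl20 and Nfkbia. The Socs3 and Il6st windows end in letters that read as a coding start, so they may not cover the promoter in use. Sites outside the windows were not searched. The matches given here are of letters and are not tests of binding.

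Cxcl1 had 65.2, 252 and 43.3 in GW5074 at 6 h, 247, 223 and 61.2 in low potassium at 6 h, 373, 605 and 549 in GW5074 at 3 h and 358, 567 and 617 in low potassium at 3 h. All 6 h arrays lay below all 3 h arrays, and the 6 h arrays themselves spread widely, the GW5074 arrays A and C and the low-potassium array C being the low ones. Cxcl1 fell by 2.25 ± 0.49 on the log2 scale in GW5074 (SE, limma adjusted p = 0.00533) and by 1.62 ± 0.49 in low potassium (adjusted p = 0.0294). The GW5074 call held under all 14 alternatives, with changes between -2.88 and -1.79. The low-potassium call was lost without the 3 h array B (-1.54, adjusted p = 0.0988) or C (-1.48, 0.0821) or the 6 h array C (-1.07, 0.138).

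Ccl20 had 186, 217 and 152 in GW5074 at 6 h, 261, 137 and 120 in low potassium at 6 h, 306, 394 and 370 in GW5074 at 3 h and 242, 316 and 263 in low potassium at 3 h. In GW5074 the times did not overlap, while in low potassium array A at 6 h lay within the range at 3 h. It fell by 0.96 ± 0.23 in GW5074 (SE, limma adjusted p = 0.00865), a call that held under all 14 alternatives, and by 0.74 ± 0.23 in low potassium (adjusted p = 0.0321). The low-potassium call was lost without any 1 of 5 arrays: 3 h A (-0.82, adjusted p = 0.0518), 3 h B (-0.64, 0.126), 3 h C (-0.77, 0.0595), 6 h B (-0.63, 0.0799) or 6 h C (-0.54, 0.145).

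Ccl2, which draws monocytes, had 345, 539 and 219 in GW5074 at 6 h, 922, 615 and 222 in low potassium at 6 h, 838, 881 and 680.2 in GW5074 at 3 h and 599, 791 and 622 in low potassium at 3 h. The GW5074 arrays separated by time, and the low-potassium arrays did not, array A at 6 h being the highest of all 12 and array C among the lowest. Ccl2 fell by 1.20 ± 0.40 in GW5074 (SE, limma adjusted p = 0.0415), and in low potassium the change was -0.38 ± 0.40 (adjusted p = 0.522). The GW5074 call was lost without the GW5074 3 h array A (-1.17, adjusted p = 0.0965), B (-1.12, 0.120) or C (-1.28, 0.0600) or the 6 h array A (-1.19, 0.110) or C (-0.88, 0.167), with no filter (adjusted p = 0.0642) and with no mean-variance trend (0.0619). The difference between the changes of the 2 treatments was -0.81 (95% interval -2.03 to 0.40, adjusted p = 0.9998), so a difference of Ccl2 between treatments was not shown.

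Nfkbia, the inhibitor that NF-kB itself induces, had 116, 123 and 105 in GW5074 at 6 h, 122, 128 and 88.8 in low potassium at 6 h, 154, 118 and 154 in GW5074 at 3 h and 129, 144 and 144 in low potassium at 3 h. In low potassium the times did not overlap. In GW5074 the deposited values overlapped, array B at 3 h lying within the range at 6 h, although the normalised values of the fit did not. Its change was -0.33 ± 0.16 in each treatment (SE, limma adjusted p = 0.141 in GW5074 and 0.134 in low potassium), not past the threshold.

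Placed in order of mean level at the brightest probe set, all 9 genes had both 3 h groups above both 6 h groups. They differed in how far the groups overlapped, and Lifr lay below the filter. Other probe sets of Il6st and Lifr did not keep this order. Il6st 1373140_at and 1383489_at had their highest mean in GW5074 at 6 h (147 and 85.0). Lifr 1395957_at had its lowest in low potassium at 3 h (5.60). For Cxcl1 the means were 120.2 ± 115 in GW5074 at 6 h, 177 ± 101 in low potassium at 6 h, 509 ± 121 in GW5074 at 3 h and 514 ± 137 in low potassium at 3 h (SD, n = 3 each). For Stat3, Il6st, Ccl20, Nfkbia and Cxcl1 the 2 groups of a time overlapped with each other, and the lower 3 h group did not overlap with the higher 6 h group. Only neighbours in the order were compared in this way, and the times were not apart for all of these genes. Il6st and Ccl20 in low potassium and Nfkbia in GW5074 overlapped between 3 h and 6 h. For Socs3, Socs2, Ccl2 and Lifr all neighbouring groups in the order overlapped.

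The comparison of GW5074 with low potassium asks whether the pathway differed between the treatments at a given time. As the potassium of the GW5074 cultures is not stated, a difference could not be assigned to the inhibitor alone. None of the 8 genes passed the test at 3 h or at 6 h. The largest log2 differences at 6 h were -0.63 for Cxcl1 (95% interval -1.68 to 0.42), -0.57 for Ccl2 (-1.42 to 0.29) and 0.39 for Socs3 (-0.21 to 0.98). At 3 h they were 0.35 for Ccl20 (-0.13 to 0.84) and 0.25 for Ccl2 (-0.61 to 1.11). Intervals this wide include differences of over 1.5 times in both directions for Ccl2 at 3 h, so a missing call does not show equal levels.

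By limma without pairs, 0 of the 12 probe sets passed at 3 h, at 6 h, averaged over both times or in the difference between the times, and 0% of all 18625 probe sets passed in each. At an unadjusted p under 0.05 the 12 probe sets gave 0 in each of these comparisons, and all probe sets gave 300, 895, 467 and 645 in that order. Arrays of a letter deviated together within a time, so a fit on pairs of arrays was also made. It called 0 of the 12 probe sets as well, with 0.0161% of all probe sets called at 3 h, 1.87% at 6 h, 0.236% averaged and 0.193% for the difference between the times. In the paired fit 2, 4, 2 and 2 of the 12 probe sets had an unadjusted p under 0.05 in these comparisons, and their lowest adjusted p was 0.737, 0.126, 0.414 and 0.157. The 3 GW5074 arrays lay apart from the 3 low-potassium arrays for 1 of the 12 probe sets at 3 h (7.22% of all) and for 0 at 6 h (9.74%). That probe set was Il6st 1373140_at, with 124, 113 and 135 in GW5074 against 141, 143 and 149 in low potassium.

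**Figure D3:**
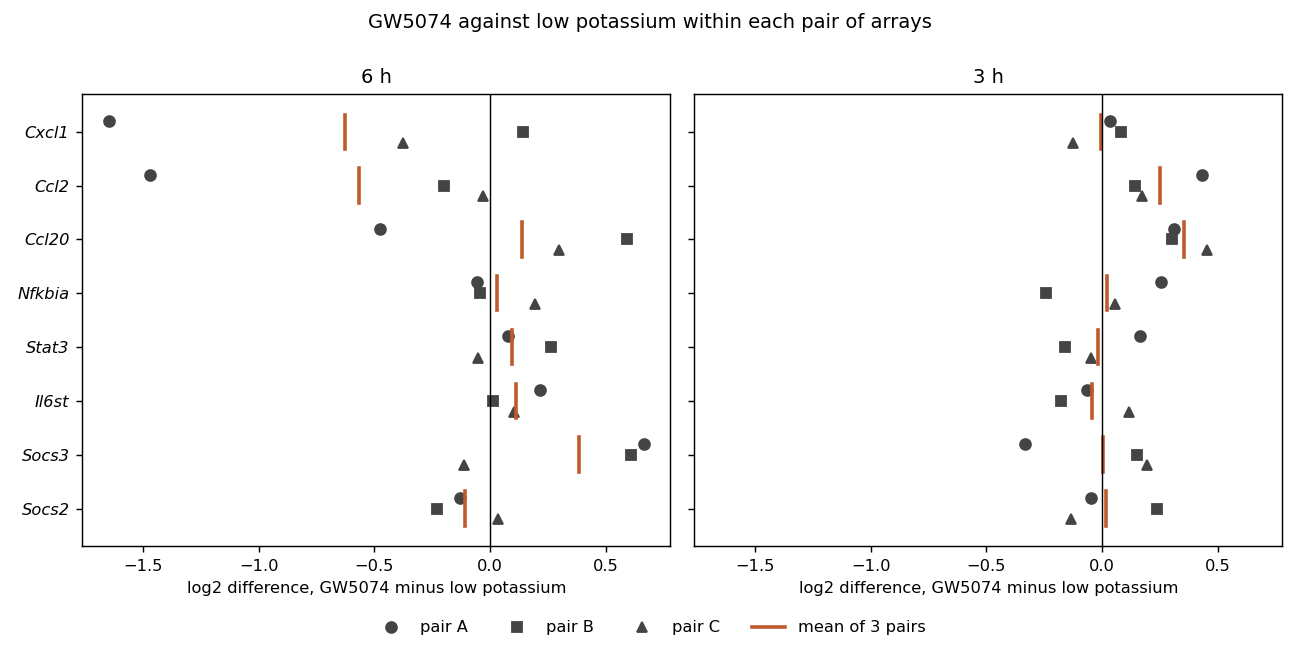
Log2 difference, GW5074 minus low potassium, within each pair of arrays of the same letter at 6 h (left) and 3 h (right), for the brightest probe set of each gene; the orange bar is the mean of the 3 pairs. At 6 h pair A has -1.65 for Cxcl1 and -1.47 for Ccl2, far from the other pairs, while at 3 h all pairs of Ccl20 lie between 0.30 and 0.45.

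Among the chemokine genes, Cxcl1 at 6 h differed by -1.65, 0.14 and -0.38 in pairs A, B and C, lower with GW5074 in 2 of 3 pairs (paired limma adjusted p = 0.149). Without pair B at 6 h, whose arrays lay nearer the 3 h arrays, the difference was -1.01 and passed (adjusted p = 0.0199), so this call rests on which pairs are kept. Ccl2 at 6 h differed by -1.47, -0.20 and -0.03, lower with GW5074 in 3 of 3 pairs (paired adjusted p = 0.126), with pair A far larger than the others. At 3 h it was higher in 3 of 3 pairs, by 0.43, 0.14 and 0.17 (0.894). Ccl20 at 3 h was higher in 3 of 3 pairs, by 0.31, 0.30 and 0.45 (0.737), and at 6 h differed by -0.48, 0.59 and 0.30 (0.715).

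Among the signalling genes, Socs3 at 6 h differed by 0.66, 0.61 and -0.11 in pairs A, B and C, higher in 2 of 3 (paired limma adjusted p = 0.435). The second Stat3 probe set was higher in 3 of 3 pairs at 6 h, with a mean of 0.28 (0.182), while the brightest had 0.10 (0.638). At 6 h 3 of the 4 Il6st probe sets were higher in 3 of 3 pairs, by means of 0.11, 0.22 and 0.07, with adjusted p from 0.230 to 0.824. Nfkbia and Socs2 at 6 h had means of 0.03 and -0.11 with mixed signs over the pairs. Lifr, tested with no filter, had -0.14 and 0.06 at its probe sets at 6 h, and -0.14 and 0.59 at 3 h, where the brighter probe set ran from 4.45 to 38.9 within the GW5074 arrays.

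The other genes of the pathway, from lists that leave out the members, did not move one way over time. Of all 10260 genes tested, 13.5% rose and 14.1% fell in GW5074, and 11.5% rose and 14.1% fell in low potassium. In the JAK and STAT list, Stat2, a transcription factor of interferon signalling, rose by 0.90 in GW5074 (limma adjusted p = 0.000837) and 0.62 in low potassium (0.00755), with a mean intensity of 217 ± 32.3 against 102 ± 5.01 for 6 h against 3 h in GW5074 (SD, n = 3 each). Of 7 such genes tested, 2 rose and 1 fell in GW5074 (Jak3, 0.71, and Jak2, -0.59, besides Stat2), and Stat2 was the 1 that rose in low potassium; 1 of 7 is close to the share of all genes. Among 11 JAK-STAT inhibitors, 1 rose and 1 fell in GW5074, Socs7 (0.50), of the SOCS family, and the SUMO ligase gene Pias2 (-0.54), below the shares of all genes. In low potassium 2 rose and 2 fell, among them Pias1 (0.63), the phosphatase gene Ptpn2 (0.47) and its relative Ptpn1 (-0.55). The medians of these lists were 0.29 and 0.12 in GW5074 and 0.16 and 0.35 in low potassium, against -0.02 and -0.04 for all genes tested. The gp130 ligands and co-receptors had 3 genes above the filter of 11 listed (Cntf, Cntfr and Il6r), and none passed, Il6r having -0.59 in GW5074 and -0.40 in low potassium. Without the 6 h array B Il6r had -0.82 in GW5074 (adjusted p = 0.0150).

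Genes known as STAT3 targets in various tissues were called in both directions, more often as lower. Of 18 tested, 1 rose and 6 fell in GW5074, and 1 rose and 4 fell in low potassium. The medians were -0.21 and -0.18. Over all genes 13.5% rose and 14.1% fell in GW5074 and 11.5% and 14.1% in low potassium. In both treatments the single riser lies below the share of all genes that rose. The genes that fell lie above the share of all genes that fell, a contrast that was not tested. Atf3, a stress-induced transcription factor, fell by 2.37 in GW5074 (limma adjusted p = 0.00182) and by 1.67 in low potassium (0.0137), and Serpina3n, a secreted protease inhibitor, had -1.38 (0.00249) and -1.21 (0.00603), also falls. Gfap, the astrocyte filament gene, was the 1 that rose, by 1.92 in GW5074 (0.00647) and 1.87 in low potassium (0.00808). Gfap is also an astrocyte marker, and the 9 astrocyte markers measured summed to 4038 to 4620 in GW5074 at 6 h, 3593 to 5950 in low potassium at 6 h, 2225 to 2640 in GW5074 at 3 h and 2303 to 3094 in low potassium at 3 h. Within that sum, Gfap was at 1658 ± 621 against 421 ± 107 for 6 h against 3 h in GW5074, and Aldoc at 1088 ± 256 against 457 ± 129 (SD, n = 3 each). Of 8 astrocyte markers tested these 2 passed in each treatment, and the list's median change was -0.00 in GW5074 and 0.23 in low potassium; Gja1 and Slc1a3 had -0.34 and -0.50 in GW5074, neither past the threshold. The 14 microglia and macrophage markers overlapped between all groups, at 812 to 1219, 927 to 1611, 795 to 1666 and 945 to 1695 in the same order, and 0 of 7 endothelial markers passed the filter. In that order too, the 8 oligodendrocyte lineage markers measured summed to 1800 to 2713, 2259 to 2458, 2604 to 3315 and 3066 to 3867, lower at 6 h without overlap in low potassium. The 7 Purkinje and GABAergic neuron markers summed to 978 to 1072, 1056 to 1222, 1184 to 1328 and 1182 to 1382, lower at 6 h without overlap in GW5074. Granule neuron markers also moved with time, 10 of 11 rising in GW5074, where 13.5% of all genes did, and 5 of 11 in low potassium, where 11.5% did. The part of these markers in the changes of the members was not tested, and in bulk RNA fewer cells of a type and less RNA per cell cannot be told apart.

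Of 16 NF-kB components and inhibitors other than Nfkbia, 1 rose and 3 fell in GW5074 and 1 rose in low potassium (13.5% and 14.1% of all genes in GW5074, 11.5% and 14.1% in low potassium). The riser in both was Tnip1, which encodes an A20-binding inhibitor of NF-kB, by 1.05 in GW5074 (limma adjusted p = 0.00545) and 0.81 in low potassium (0.0231). The TNF receptor gene Tnfrsf1a (-0.86) and the IKK kinase gene Ikbkb (-0.73) were among those that fell in GW5074. Of 18 other chemokine and cytokine genes, 1 rose and 3 fell in GW5074, the 3 being Cxcl11 (-1.64), Ccl6 (-1.42) and Ccl7 (-1.41), where 13.5% of all genes rose and 14.1% fell. In low potassium Cxcl11 fell (-1.37) and the cytokine genes Il15 (0.96) and Il33 (0.82) rose. Il15 averaged 58.2 ± 6.54 in low potassium at 6 h against 22.9 ± 7.06 at 3 h (SD, n = 3 each), the 3 h mean lying below the filter value, and its change was 1.37 with 1 added and 0.50 with 64 added. Cxcl11 averaged 26.7 in GW5074 at 6 h, also below it, and its change there was -2.45 with 1 added and -0.88 with 64 added. The medians of these lists were -0.18 and -0.16 in GW5074 and both -0.25 in low potassium. Of chemokine receptors 2 of 11 listed passed the filter and none passed the test on all arrays without pairs, Ackr3, a scavenger receptor for Cxcl12, having -0.61 in GW5074 and -0.68 in low potassium. Without the 6 h array B of each treatment Ackr3 passed, at -0.81 in GW5074 (adjusted p = 0.0237) and -0.87 in low potassium (0.0205), and without the low-potassium 3 h array A at -0.93 (0.0210). On all arrays it passed with the pair as a random block, in GW5074 (adjusted p = 0.0403) and in low potassium (0.0253), and with the 60th percentile filter in low potassium (0.0481).

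**Figure D4:**
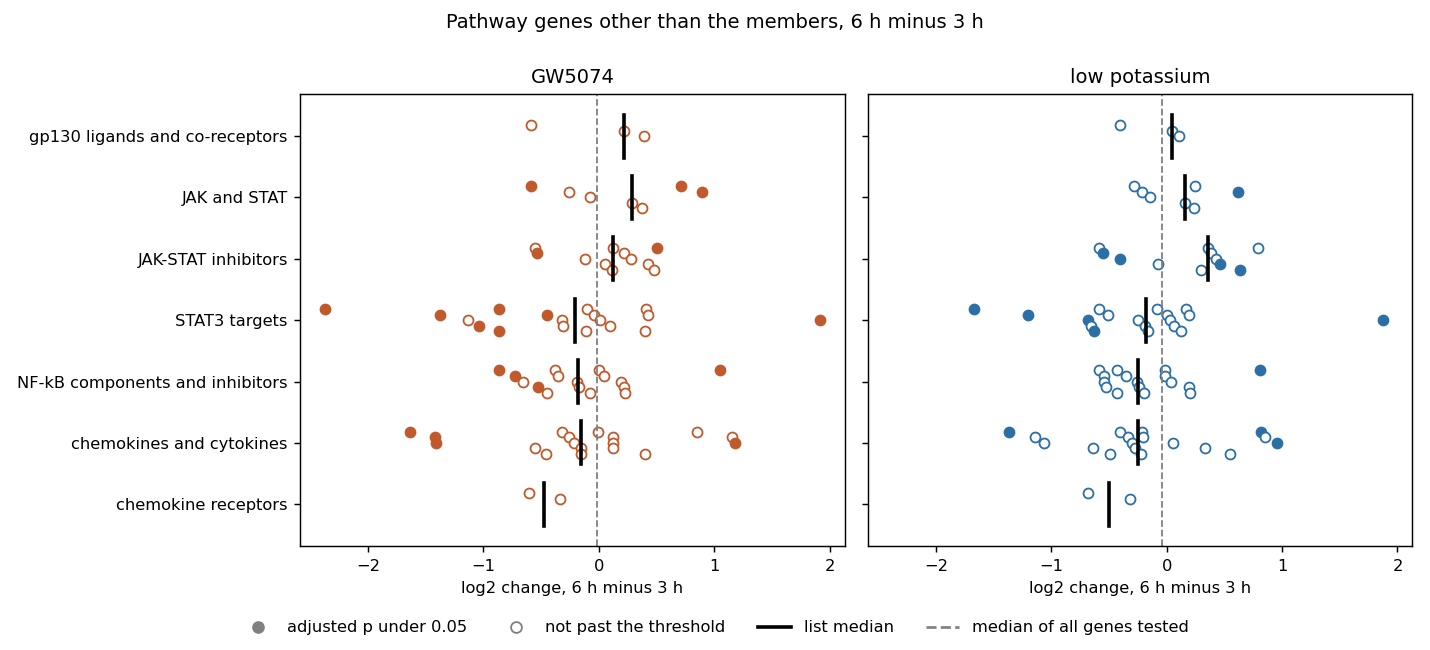
Log2 change, 6 h minus 3 h, of each pathway gene other than the members, by list, in GW5074 (left) and low potassium (right); filled points passed limma's adjusted threshold, black bars are list medians and the dashed line is the median of all genes tested. STAT3 targets run from -2.37 (Atf3) to 1.92 (Gfap) in GW5074, and no list lies wholly on one side of 0 except the 2 chemokine receptors.

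Many of these single-gene calls over time were lost when 1 array was left out. In GW5074 the calls of Stat2, Atf3, Gfap, Serpina3n, Tnip1 and Cxcl11 held with any 1 GW5074 array left out. Pias2 was lost without the 6 h array A (-0.47, adjusted p = 0.0514), Ikbkb without 3 h B (-0.67, 0.0660) or 6 h A (-0.58, 0.0805), and Tnfrsf1a without 3 h B, 6 h A or 6 h C (-0.78 to -0.77, 0.0527 to 0.0630). Socs7 (0.41 to 0.49), Ccl6 (-1.42 to -1.11) and Ccl7 (-1.46 to -1.12) were lost without 3 h A, 3 h B, 6 h A or 6 h C, Jak2 (-0.56 to -0.44) without 3 h A, 3 h C, 6 h A or 6 h C, and Jak3 (0.65 to 0.74) without any array but 6 h C. In low potassium the calls of Stat2, Gfap, Serpina3n and Il15 held with any 1 low-potassium array left out. Atf3 was lost without 3 h B, 3 h C or 6 h C (-1.62 to -1.09, adjusted p 0.0521 to 0.0542), Cxcl11 without 3 h B, 6 h A or 6 h C (-1.35 to -1.21), and Tnip1 without 3 h A, 3 h C, 6 h A or 6 h C (0.70 to 0.81). Pias1 (0.50 to 0.62) was lost without 3 h A, 3 h B, 6 h A or 6 h C, Ptpn1 (-0.58 to -0.44) and Ptpn2 (0.33 to 0.49) without 3 h B, 3 h C, 6 h A or 6 h C, and Il33 (0.55 to 0.86) without any array but 6 h B. With no filter Jak3 and Jak2 in GW5074 and Pias1, Ptpn2 and Il33 in low potassium were also lost (adjusted p 0.0627 to 0.0881). Jak2 was lost with the deposited scaling (0.0563) or 64 added (-0.38), and Ptpn2 with no mean-variance trend (0.0510) or the pair as a random block (0.0649).

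Against low potassium, the pathway lists held 0 genes past the threshold at 3 h or 6 h without pairs. The gene of each list with the smallest p at 6 h was Il6r (-0.11), Jak2 (-0.42), Ptpn1 (0.32), Atf3 (-0.98), Ikbkb (-0.31), Il33 (-0.34) and Ackr3 (0.07), with limma adjusted p from 0.983 to 0.994. At 3 h it was Cntfr (-0.34), Stat2 (-0.31), Pias1 (0.27), Icam1 (-0.26), Traf2 (-0.34), Ccl19 (0.26) and Cxcr4 (-0.01), each with an adjusted p of 1. In the paired fit at 6 h, 2 of the 18 STAT3 targets passed, both lower: Atf3 by -0.98 (limma adjusted p = 0.0266) and the cyclin gene Ccnd1 by -0.55 (0.0186). Atf3 averaged 56.5 ± 27.1 in GW5074 against 146 ± 90.0 in low potassium at 6 h, and Ccnd1 264 ± 233 against 356 ± 239 (SD, n = 3 each), so the groups overlap and the paired calls rest on the differences within letters. Atf3 was lost without pair A (-0.54, adjusted p = 0.275) or B (-0.99, 0.0680) and Ccnd1 without pair A (-0.44, 0.184) or C (-0.50, 0.0833). The list's median was -0.15, against 0.02 for all genes tested. In the paired fit the smallest p among JAK-STAT inhibitors was that of the phosphatase gene Ptpn11 (0.19, adjusted p = 0.239), and among chemokines and cytokines that of Cxcl12 (0.35, 0.102), which passed without pair B (0.48, 0.0481).

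The genes whose pattern was most like that of a member were ranked by Pearson's r over the log2 values of the 12 arrays, as a description. For Cxcl1 they were Rgs4 (0.988), a regulator of G-protein signalling, Elovl5 (0.984), a fatty acid elongase, and Eif3i (0.977), a translation initiation factor subunit. For Ccl2 they were Tagln2 (0.951), an actin-binding protein gene, Tnfrsf12a (0.949), the receptor of the cytokine TWEAK, and Ctsh (0.943), a lysosomal protease. Stat3 was most like Nr2c2ap (0.949), Bri3 (0.945) and Srp68 (0.945), Socs3 most like Gca (0.953), Creb3l1 (0.932) and Tomm40l (0.930), and Nfkbia most like Cdc16 (0.959), Lamp1 (0.931) and Spred3 (0.929). Among the members themselves, Cxcl1 and Ccl2 had r = 0.879, Socs3 and Il6st 0.901 and Stat3 and Ccl20 0.860. The arrays share the step between 3 h and 6 h, which enters every one of these values.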

How the data were processed

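Total RNA was measured on 12 arrays, grouped by title. The authors deposited 1 linear intensity per probe set and array. From the values, every array had a 2% trimmed mean of 150.1, and the sources used here name neither software nor summarisation. Of 31042 probe sets (57 controls left out), 20826 carried 1 symbol and 20758 of these matched a rat gene by Entrez identifier. With 3 arrays a group, their number limits precision.

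The deposited intensities were quantile-normalised, 16 was added and log2 taken. Probe sets were kept at or above the 40th percentile of mean deposited intensity (28.0). Groups were compared by limma 3.58.1, run in R 4.3.3 (lmFit, then eBayes with trend, two-sided tests, 4 group means, Benjamini-Hochberg over 18625 probe sets, threshold 0.05), and the tests were checked on simulated data. A gene is represented by its brightest probe set. The members and lists were chosen with earlier results of these data known. Genes named were all members, up to 3 list genes past the threshold with the largest change (where none passed, the smallest p), and the 3 most like 5 of the members. List genes are given for the changes over time and for GW5074 at each time, and not for the average or the difference between times.

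Pairs come from the letters in the labels. After removal of group means, the GW5074 and low-potassium arrays of a letter correlated by 0.426, 0.209 and 0.543 at 3 h (A, B, C) and by 0.293, 0.650 and 0.571 at 6 h. The paired fit has a block for each letter within a time, with 4 residual degrees of freedom against 8. Alternatives were the deposited scaling, 1 or 64 added, no filter or the 60th percentile, no trend, the pair as a random block, and each array or pair left out, and, chosen after seeing the data, both 6 h arrays of letter B left out. Figures used matplotlib 3.10.9 in Python 3.11.15.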

Additional observations from a re-analysis of the deposited data

Results flagged for a closer look

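At 3 probe sets of the members, the GW5074 array was above its low-potassium partner in all 3 pairs of one time and below it in all 3 pairs of the other. For Ccl2, above at 3 h and below at 6 h, the GW5074 difference from low potassium at 6 h minus that at 3 h was -0.81 on the log2 scale (limma adjusted p = 0.9998 without pairs, 0.182 with pairs). For Il6st, below at 3 h and above at 6 h, it was 0.43 at probe set 1370957_at (0.9998 without pairs, 0.157 with pairs) and 0.27 at 1373140_at (0.9998 and 0.510). None of these differences passed the test. Over all probe sets, 1132 of 18625 (6.08%) had pairs opposed in this way. The other Il6st probe sets gave 0.15 and 0.05. With 3 arrays a group, single arrays were not examined as outliers.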

How the results depend on the processing

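Without pairs, limma called 0 probe sets in each comparison of GW5074 with low potassium. With the replicate block the counts were 3 at 3 h, 349 at 6 h, 44 averaged over both times and 36 for the difference between the times, and with the pair as a random block 103 at 6 h and 18 averaged. The block changed no call of a member, and among the list genes it added Atf3 and Ccnd1 at 6 h. Leaving out 1 array at a time gave 0 to 3 calls at 6 h and 0 to 3 averaged (no pairs), 2463 to 5362 for 6 h minus 3 h in GW5074 (4664 with all arrays) and 2193 to 4956 in low potassium (4223), where the fits have fewer samples. Leaving out 1 pair at a time, the paired counts were 0 to 6 at 3 h, 57 to 292 at 6 h, 15 to 48 averaged and 0 to 154 for the difference between the times. Without both 6 h arrays of letter B, which was chosen after seeing the data, Il6st passed in low potassium (-0.52, adjusted p = 0.0114) and Ccl20 did not (-0.63, 0.0698). Of 1612 alternative values of single genes, 1431 kept direction and side of the threshold, 92 lost a call, 17 gained one and 72 values that never passed changed sign, and 0 called values changed sign. These totals include comparisons without a call, so they do not give the stability of the calls. In low potassium the member calls held in 11 of 14 alternatives (Cxcl1), 10 of 14 (Stat3), 10 of 13 (Socs3) and 8 of 14 (Ccl20). In GW5074 they held in all 14 for Cxcl1 and Ccl20 and in 7 of 14 for Ccl2. The 60th percentile filter removed Socs2 and Socs3 and gave them no value. Lifr, below the main filter, was tested with no filter.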
